A study of Mus musculus with 6 samples.

Results

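Chromatin accessibility was described at 10 genes of TNF signalling and NF-kB feedback: the TNF receptors Tnfrsf1a and Tnfrsf1b, the NF-kB subunits Nfkb1, Nfkb2, Rela and Relb, and the regulators Nfkbia, Nfkbiz, Tnfaip3 and Bcl3. They were chosen by name, and are 10 of 21938 protein-coding genes with a promoter window. Measured were cut sites, the ends of single-cell ATAC-seq fragments, which pile up where chromatin is open. All 10 promoters passed the filter on low counts, as did 17163 promoters in all. Each gene was also followed in 500 bp tiles over its body and 50 kb either side. Of 2522 such tiles, 816 were open enough to be tested.

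The nuclei came from the dorsal olfactory epithelium of adult mice that carry Krt5CreER and a Rosa26 LSL-YFP reporter on both alleles, so that YFP marks Krt5-expressing horizontal basal cells (HBCs), normally quiet stem cells held in reserve, and whatever descends from them. YFP-positive cells without propidium iodide stain were sorted, 3 libraries from uninjured controls and 3 from mice collected 24 h after intraperitoneal methimazole, a drug that destroys most cells above the HBCs. In both groups the mice were 8 weeks old for replicate 1, 6 weeks for replicate 2 and 6 to 7 weeks for replicate 3.

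TNF binds TNFR1, which Tnfrsf1a encodes and most cells carry, and TNFR2, which Tnfrsf1b encodes and which is best known from immune cells. Both receptors lead to release of NF-kB dimers from inhibitors of the IkB family. The dimers enter the nucleus, bind kB sites and switch on, among many targets, the genes of their own brakes, above all Nfkbia (IkB-alpha) and Tnfaip3 (A20, a ubiquitin editor). In the olfactory epithelium, TNF and NF-kB signalling in HBCs has been linked to the response to inflammation and injury.

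Per library, 420 to 1338 barcodes had at least 2000 fragments, with 14825320 to 44875242 cut sites. A single barcode of injured replicate 2 held 14.7% of that library's fragments, with 12.9% of them in open tiles. Uninjured replicate 3 and injured replicate 3 shared 34 barcodes, against 0 to 4 in each of the other pairs of libraries. Promoters of the HBC markers Krt5 and Krt14 were open in all libraries, at 19.9 to 38.3 CPM. CPM stands for cut sites per 1000000 cut sites of the library, scaled with TMM factors unless stated otherwise. The summed level of 6 HBC markers overlapped between groups, at 82.6 to 116 in uninjured and 77.9 to 116 in injured libraries. The 6 sustentacular markers summed to 66.9 to 69.9 before and 33.1 to 42.8 after injury, with 3 promoters (Ermn, Cbr2 and Muc2) called lower. Summed markers of sensory neurons, globose basal cells, Bowman gland and stroma overlapped between groups, with none called by edgeR. Injured replicate 3 stood apart in the sensory neuron sum, at 61.6 against 26.1 to 37.7 in the other libraries, and in the globose basal sum, at 40.3 against 26.1 to 33.7. The HBC regulator Trp63 was nearly closed at its 5′-most start, at 0.624 to 1.17 CPM. Other starts of Trp63 are not given, so this value does not say that the gene was closed.

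On the log2 scale the largest changes lay away from the promoters. On that scale a tile almost closed before injury can reach a large value from few cut sites. The tiles were also picked from 816 tested, against 10 promoters. In 8 of the 10 loci, tiles that were almost closed in uninjured cells were open after injury. Rises were called at 4.29% of the tested member tiles and at 4.84% of all tested tiles. How many loci of other genes held such a tile was not counted, and nothing particular to these 8 is read from it. In each of the 8 the tile of largest rise was taken, among called tiles whose groups did not overlap. The Nfkb2, Nfkb1, Tnfrsf1b and Tnfrsf1a tiles were open enough to be tested only through the injured libraries. Their large changes follow in part from that choice. For each tile, the stretch of 200 bases with the most cut sites in injured libraries is printed, because the next paragraphs describe these sites. Sequences are the plus strand of GRCm38, 5′ to 3′, from RefSeq, and capitals mark a match to the AP-1 motif TGANTCA, which is its own reverse complement. The stretches lie at chr19:46352249-46352448 (Nfkb2), chr3:135712300-135712499 (Nfkb1), chr12:55467001-55467200 (Nfkbia), chr10:19028509-19028708 (Tnfaip3), chr4:145272781-145272980 (Tnfrsf1b), chr6:125409300-125409499 (Tnfrsf1a), chr7:19802064-19802263 (Bcl3) and chr16:55777784-55777983 (Nfkbiz).
Nfkb2 +47.9 kb: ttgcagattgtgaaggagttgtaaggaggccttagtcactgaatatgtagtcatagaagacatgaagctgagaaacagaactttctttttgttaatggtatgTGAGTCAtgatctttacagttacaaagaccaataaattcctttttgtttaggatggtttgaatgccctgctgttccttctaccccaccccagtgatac
Nfkb1 -20.7 kb: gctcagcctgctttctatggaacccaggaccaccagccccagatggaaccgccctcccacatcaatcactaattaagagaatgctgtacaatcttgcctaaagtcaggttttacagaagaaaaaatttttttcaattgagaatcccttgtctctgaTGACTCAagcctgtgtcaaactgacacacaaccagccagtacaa
Nfkbia +25.4 kb: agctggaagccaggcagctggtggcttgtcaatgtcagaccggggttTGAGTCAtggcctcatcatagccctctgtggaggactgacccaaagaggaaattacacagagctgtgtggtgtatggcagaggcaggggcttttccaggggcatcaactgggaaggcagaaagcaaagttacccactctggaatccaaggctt
Tnfaip3 -13.1 kb: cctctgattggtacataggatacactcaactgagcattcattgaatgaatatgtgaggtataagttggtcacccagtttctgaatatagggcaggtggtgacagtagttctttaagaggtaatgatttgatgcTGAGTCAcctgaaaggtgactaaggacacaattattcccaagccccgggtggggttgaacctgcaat
Tnfrsf1b -25.9 kb: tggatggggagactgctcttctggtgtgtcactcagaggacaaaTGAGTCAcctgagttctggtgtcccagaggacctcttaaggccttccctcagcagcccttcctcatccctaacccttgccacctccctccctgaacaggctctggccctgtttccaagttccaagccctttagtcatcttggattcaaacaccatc
Tnfrsf1a +59.9 kb: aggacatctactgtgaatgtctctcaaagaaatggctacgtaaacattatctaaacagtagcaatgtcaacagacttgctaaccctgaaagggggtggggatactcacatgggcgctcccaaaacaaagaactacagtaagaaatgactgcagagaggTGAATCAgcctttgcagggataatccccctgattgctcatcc
Bcl3 +20.5 kb: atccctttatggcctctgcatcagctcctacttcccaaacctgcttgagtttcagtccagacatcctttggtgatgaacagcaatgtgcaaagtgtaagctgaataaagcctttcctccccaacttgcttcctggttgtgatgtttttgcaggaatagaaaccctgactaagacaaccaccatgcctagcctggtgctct
Nfkbiz +61.1 kb: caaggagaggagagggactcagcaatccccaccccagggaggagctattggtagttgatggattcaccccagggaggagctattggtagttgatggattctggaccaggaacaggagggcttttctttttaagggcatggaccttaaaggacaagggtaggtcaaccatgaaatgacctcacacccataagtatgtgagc

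Names give the distance in kb of the tile's centre from the 5′-most annotated start of the gene, negative upstream. The Nfkb2 site lies in an intron of Mfsd13a and the Tnfrsf1b site in an intron of Tnfrsf8, and the other 6 are intergenic. A place near a gene does not say which gene it acts on. The stretches of the Bcl3 and Nfkbiz loci held neither the AP-1 motif nor the kB motif (the NF-kB consensus of 10 bases). Searched over the whole 500 bp, the Bcl3 tile and the Nfkbia tile each held 1 kB match, and the Nfkbiz tile neither motif.

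At the Nfkb2 site the uninjured libraries held 0, 3 and 0 cut sites and the injured libraries 233, 88 and 50. A count of 0 allows up to 0.194 CPM in uninjured replicate 1 and 0.0902 CPM in replicate 3. Summed over libraries the rate was 101 times as high after injury, with an exact 95% interval of 34.2 to 490 that covers counting error only. The fitted log2 change was 6.53 ± 0.85 (SE, adjusted p = 0.00349, edgeR). Without uninjured replicate 2, which held all 3 uninjured cut sites, it was 9.79 (adjusted p = 0.0179), a value that rests on the prior count and is no bound. Nfkb2 encodes p100, precursor of the p52 subunit, and the site lies 47.9 kb past its start. The nearest annotated start is that of 2310034G01Rik, 1948 bases from the tile's centre, where a tile was also called higher (log2 change 1.84).

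At the Nfkb1 site, 20.7 kb upstream of the gene for p105 and p50, uninjured libraries held 1, 3 and 1 cut sites and injured libraries 110, 58 and 22. The summed rate was 30.9 times as high (exact 95% interval 13.0 to 96.3), with a log2 change of 4.93 ± 0.77 (SE, adjusted p = 0.00564). Injured replicate 3 was the lowest of its group at both sites, and no injured library overlapped an uninjured one.

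The Nfkbia site, 25.4 kb past the start of the IkB-alpha gene, had 0.0645, 0.928 and 0.391 CPM in uninjured and 6.11, 5.35 and 1.99 in injured libraries. Its log2 change was 3.14 ± 0.61 (SE, adjusted p = 0.0131). Without uninjured replicate 2 it was 4.11 and still called (adjusted p = 0.0211), and without injured replicate 2 the call was lost, at an adjusted p of 0.077. The Tnfaip3 site, 13.1 kb upstream, had 0.323, 0.509 and 0.451 before and 6.06, 3.49 and 1.50 after injury, a log2 change of 3.06 ± 0.51 (SE, adjusted p = 0.00728). In both loci the groups were apart, and injured replicate 3 was again lowest.

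For the receptors, the Tnfrsf1b site 25.9 kb upstream had 0.194, 0.120 and 0.180 CPM in uninjured libraries. It had 2.41, 1.77 and 1.06 in injured libraries, a log2 change of 3.41 ± 0.51 (SE, adjusted p = 0.00497). The Tnfrsf1a site 59.9 kb past the start went from 0.194, 0.210 and 0.271 to 2.90, 2.19 and 1.32, a log2 change of 3.20 ± 0.47 (SE, adjusted p = 0.00443). Both receptor loci thus held a distal site that rose, while their promoters changed in opposite directions.

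The Bcl3 and Nfkbiz loci code for nuclear IkB proteins, which bind NF-kB dimers on DNA. A tile 20.5 kb past the Bcl3 start (chr7:19802001-19802500, intergenic) rose from 0.129, 0.359 and 0.541 to 6.36, 5.95 and 3.08, by a log2 of 3.77 ± 0.45 (SE, adjusted p = 0.0031). A tile 61.1 kb past the 5′-most Nfkbiz start (chr16:55777501-55778000, intergenic) rose from 0.129, 0.299 and 0.361 to 3.34, 3.02 and 1.24, by 3.16 ± 0.51 (SE, adjusted p = 0.00656). Neither the Rela nor the Relb locus had a tile called higher by edgeR. At an unadjusted p under 0.05 each had 3, and DESeq2 called 1 in the Rela and 0 in the Relb locus. Counts at an unadjusted p, here and below, stand without the share of all features at that threshold. Nothing is read from them.

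**Figure D1:**
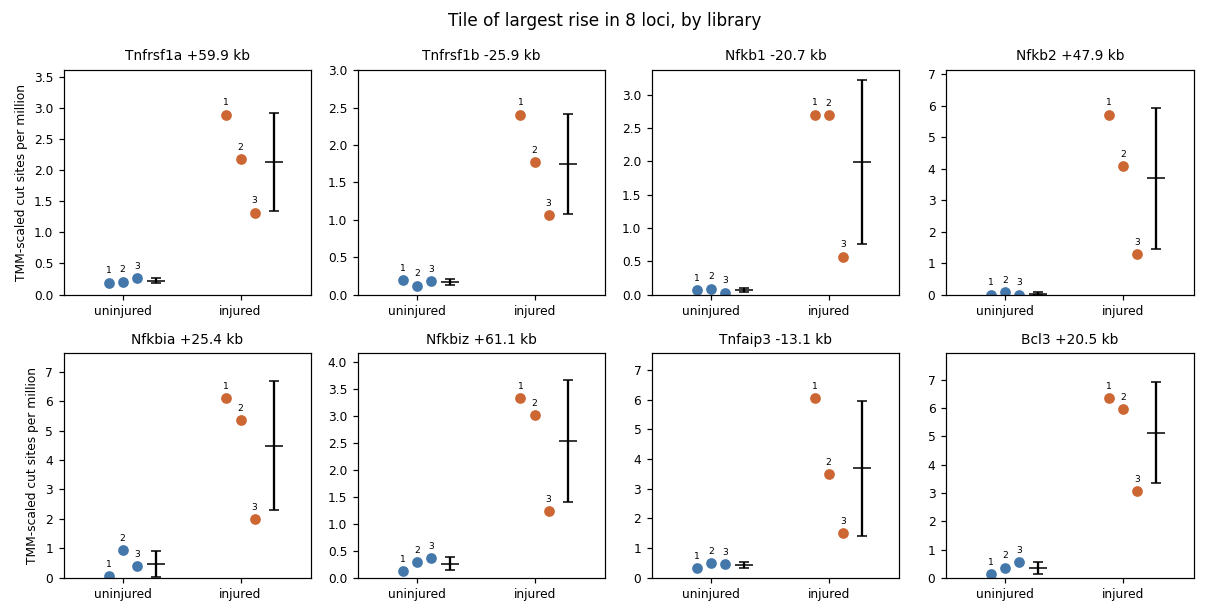
CPM, scaled, in the tile of largest rise of each of 8 loci. Points are single libraries numbered by replicate, bars the mean ± SD of 3 libraries. All injured libraries sit above all uninjured ones, a condition of the choice of tiles, and injured replicate 3 is the lowest of its group in each panel.

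Counted over all 10 loci, 35 of 816 tested tiles were higher (4.29%) and 15 lower (1.84%). Of all 397121 tiles tested, 4.84% were called higher and 1.66% lower. The shares at the members were thus near those of the whole genome, and nothing particular to these loci is read from them. Without the barcodes that 2 libraries share, 38 were higher and 11 lower (5.35% and 1.65% of all tiles). Among barcodes with at least 20% of cut sites in open tiles, which leaves out the deepest barcode, 36 and 10 were (4.96% and 1.41% of all tiles). With factors from 10 kb bins the members had 26 higher and 56 lower (13307 and 20083 of all tiles instead of 19235 and 6604, with the median tile at -0.37). With total cut sites they had 32 and 31 (17787 and 9838 of all, median -0.12). The tiles formed 22 stretches of adjoining tiles for the rises and 13 for the falls.

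Most rises lay away from starts. Of the 35 rises, 32 lay farther than 1 kb from any annotated start, and the other 3 were at starts of 2310034G01Rik and Ceacam16, which are not members. Among all rises in the genome, 95.6% lay that far from a start. Of the 15 falls, 7 were within 1 kb of a start and 8 farther, while 72.0% of all falls in the genome were farther. This difference was not tested. Of the 7, 6 were at starts of Tnfrsf1a, Rela, Nfkbiz or Tnfaip3.

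Locus by locus, the Nfkb1 locus had the most rises, 9 of 120 tested tiles, in 4 places: around -21 kb, at -44.7 kb, in a Nfkb1 intron at 62.3 to 62.8 kb, and in an intron of the neighbour Manba at 134 to 135 kb. The Bcl3 locus had 6 rises of 113, the Nfkbia locus 5 of 73, and the Nfkbiz locus 4 of 77. The Tnfaip3 locus had 3 of 52, its other opened stretch lying at -30.6 to -31.1 kb. The Tnfrsf1b locus had 2 of 27, the second in an intron of Tnfrsf1b itself, at 13.1 kb with a log2 change of 2.57.

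**Figure D2:**
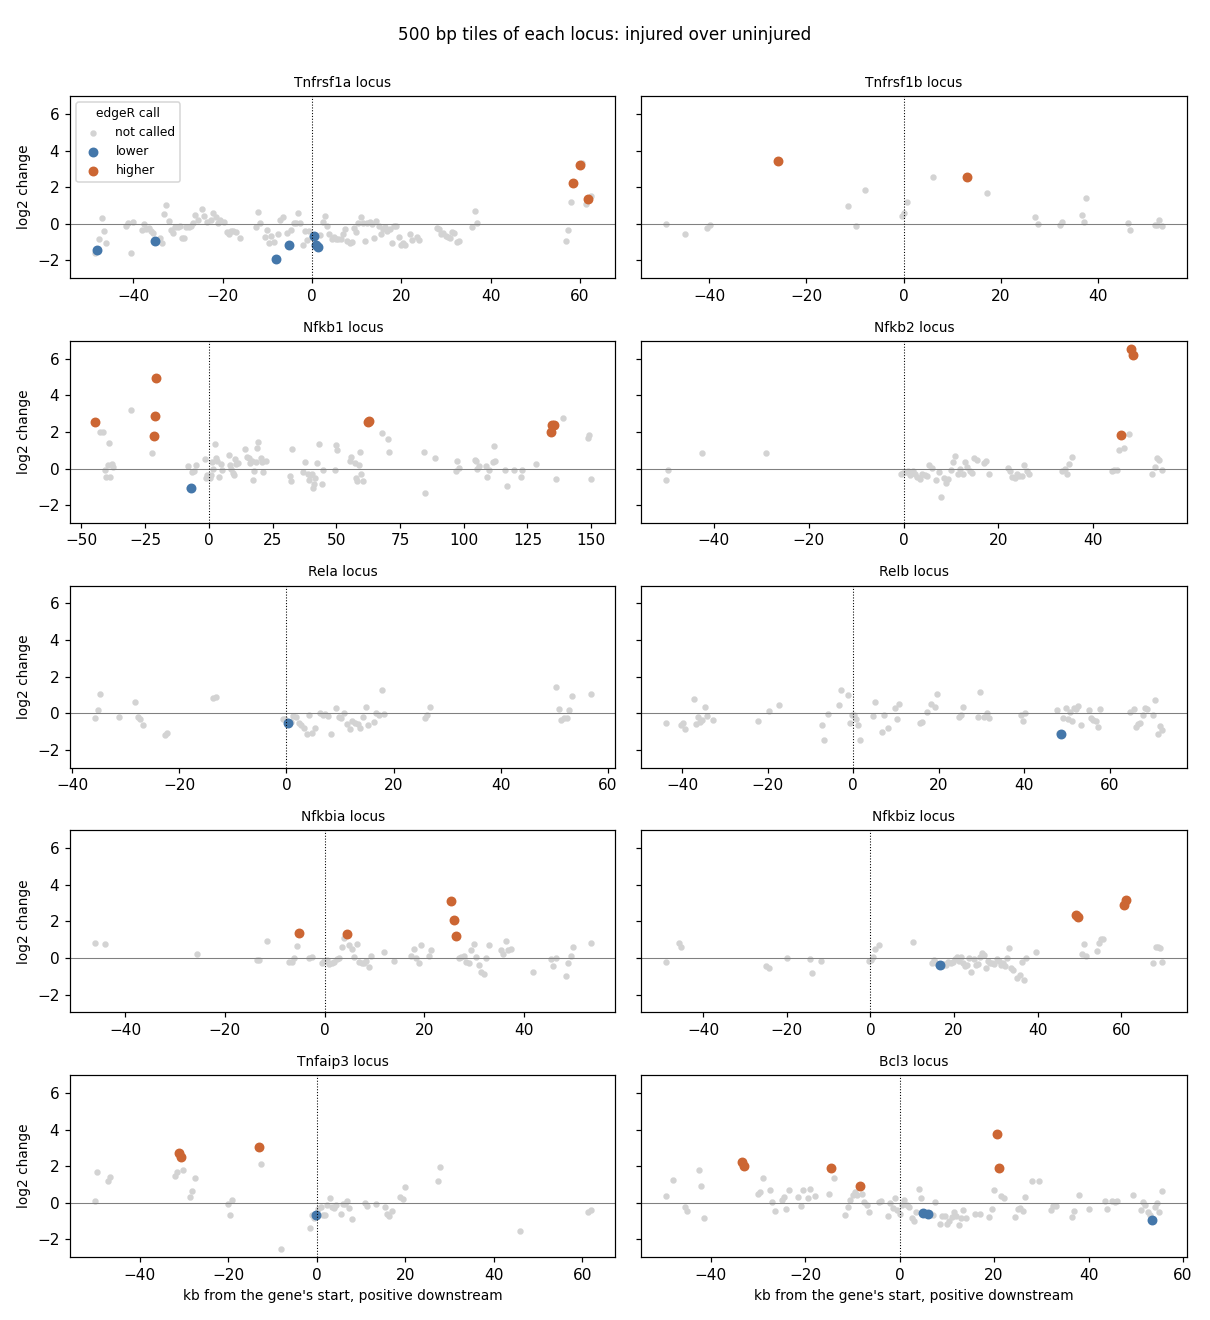
Log2 change of each tested 500 bp tile (vertical axis) against its distance in kb from the start of the gene, by locus, injured over uninjured. Orange tiles were called higher and blue tiles lower at an adjusted p under 0.05. Rises lie away from the dotted start lines, while 3 of the 7 falls in the Tnfrsf1a locus and those at the Rela and Tnfaip3 starts lie beside them.

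The AP-1 motif, searched over whole tiles on both strands, was present in 18 of the 35 member tiles called higher (51.4%) and in 2 of the 15 called lower (13.3%). Among all tested tiles it was present in 20.3%, among all called higher in 61.0% and among all called lower in 7.12%. The kB motif was present in 4 of the 35 (11.4%), against 10.2% of all tested tiles and 9.66% of all called higher. It was present in 5 of the 15 member tiles called lower (33.3%), against 12.1% of all called lower. A match describes letters and shows no bound factor.

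The Tnfrsf1a locus held the most falls, with 7 of 144 tested tiles called lower and 3 higher. Of the 7, 3 adjoin each other, centred 0.388 to 1.388 kb past the 5′-most Tnfrsf1a start, and 1 sits at the start of Ltbr, the lymphotoxin receptor gene in the same locus. The deepest fall on the log2 scale was 8.1 kb upstream in an intron of Scnn1a (chr6:125341001-125341500). It went from 2.52, 2.22 and 1.50 to 0.712, 0.512 and 0.388 CPM, a log2 change of -1.93 ± 0.41 (SE, adjusted p = 0.0181), with the groups apart.

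Falls in the other loci were smaller than this on the log2 scale. At the Rela start a tile fell by 0.53 on the log2 scale (adjusted p = 0.0454), and at the Tnfaip3 start by 0.65 (adjusted p = 0.0449). The tile at the second Nfkbiz start fell by 0.38 (adjusted p = 0.0459). These 3 calls were lost with DESeq2 (adjusted p = 0.155, 0.104 and 0.308), without shared barcodes (0.0548, 0.0560 and 0.0658), among barcodes with 20% in open tiles (0.0623, 0.0577 and 0.0821) and with filterByExpr alone (0.0840, 0.0939 and 0.0723). Another, upstream of Nfkb1, at -7.2 kb, fell by 1.09 (adjusted p = 0.0496), a call kept with DESeq2 (0.0225) and lost in the other 3 (0.0782, 0.0581 and 0.0607). It was also lost in HBC-like cells (0.0633). With a filter of 10 times the median tile's mean, it and the Tnfaip3 call were lost (0.0513 and 0.0507). In the Relb locus the only call was a fall of 1.11 in an exon of Zfp296 (adjusted p = 0.00525), and in the Bcl3 locus the largest was 0.96 in an intron of Bcam (adjusted p = 0.0196). Within cluster 2, described further on, the Nfkb1 tile was at a log2 change of 0.76 and the Zfp296 tile at 0.073. The other 4 tiles of largest fall tested there kept their direction, and none was called.

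Each library was left out in turn. Of the 8 opened tiles, 7 stayed called in each of the 6 fits that left out 1 library, the Nfkbia tile being the exception given above. The 8 had been chosen as the largest called rises in these same libraries, so these fits are no independent support. The openness filter was 5 times the median tile of 0.0542 CPM, on the mean of all 6 libraries. The Nfkb2, Nfkb1, Tnfrsf1b and Tnfrsf1a tiles passed it only through the injured libraries. Their uninjured means were 0.0299, 0.0615, 0.165 and 0.225 CPM. Of the 7 tiles of largest fall, whose changes were smaller, 1 did, the tile in Zfp296. All 7 kept their direction, the Scnn1a tile with log2 changes of -2.20 to -1.73. The number of member tiles called higher fell to 14 without injured replicate 1 and to 10 without injured replicate 2, and was 69 without injured replicate 3. All tiles moved alike, from 4.84% called higher to 1.604%, 1.02% and 7.87% in these fits. The number for the members was 20 without uninjured replicate 1 and 19 without uninjured replicate 2, where 2.07% and 2.33% of all tiles were higher. The number called lower was 1 to 4 when any 1 of these 4 libraries was left out, and of all tiles 0.115% to 0.651% were then lower.

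At the promoters, windows of 1 kb either side of the 5′-most start, the receptors were the only members called by edgeR in the main fit, which holds no replicate block. Tnfrsf1b rose and Tnfrsf1a fell. Over all 17163 promoters, 2.21% were called higher and 1.71% lower, and nothing is read from a count of 1 of 10 members in each direction.

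Tnfrsf1b had 4.80, 4.96 and 5.68 CPM in uninjured and 12.8, 12.8 and 7.37 in injured libraries. The means were 5.15 ± 0.47 and 11.004 ± 3.15 (SD, n = 3), and the log2 change was 1.09 ± 0.22 (SE, adjusted p = 0.018, edgeR). All injured libraries lay above all uninjured ones, with replicate 3 nearest to the controls. The RefSeq promoter of Tnfrsf1b, 250 bases before the start (chr4:145246871-145247120, minus strand), is printed because it is the promoter that rose.
Tnfrsf1b promoter: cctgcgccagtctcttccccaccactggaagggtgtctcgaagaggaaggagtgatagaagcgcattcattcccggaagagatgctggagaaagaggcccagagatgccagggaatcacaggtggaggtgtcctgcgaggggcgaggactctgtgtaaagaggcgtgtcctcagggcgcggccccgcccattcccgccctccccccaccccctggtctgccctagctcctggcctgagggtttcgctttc

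It held neither motif, and is in lower case throughout. Tnfrsf1b is also a gene of immune cells, so their markers are given beside it. The 8 immune markers summed to 2.64 to 3.06 in uninjured and 5.27 to 7.89 in injured libraries, of which Csf1r alone was called (0.600 to 0.654 CPM before, 1.90 to 3.52 after). Tyrobp (0, 0.170 and 0.227 before, 0.304, 1.66 and 0.633 after) and Cd52 (0.120, 0.340 and 0.114 before, 0.709, 0.487 and 0.403 after) were also higher without overlap. The other 5 overlapped between groups, among them Ptprc, which encodes the pan-leukocyte antigen CD45 (0.720, 0.567 and 0 before, 0.658, 0.633 and 0.230 after). The part of immune cells in the result was not tested. In cells of the HBC-like clusters alone, the Tnfrsf1b log2 change was 1.26 ± 0.21 (SE, adjusted p = 0.00154). Within that class the immune markers summed to 1.97 ± 1.35 CPM in cluster 1 (uninjured) and 5.87 ± 0.68 in cluster 8 (injured, SD, n = 3). In cluster 2 of the class, found in every library, they summed to 3.96 ± 1.57 in uninjured and 4.09 ± 1.66 in injured libraries. These clusters are described further on.

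Tnfrsf1a had 24.9, 19.6 and 16.9 before and 13.3, 13.3 and 14.2 after injury. Its means were 20.5 ± 4.09 and 13.6 ± 0.51 (SD, n = 3), and it fell by 0.58 ± 0.13 on the log2 scale (SE, adjusted p = 0.0325). The uninjured libraries spread widely and the injured ones hardly, without overlap. In HBC-like cells the change was -0.57 ± 0.18 and was not called (adjusted p = 0.0913). Sustentacular markers fell in the same libraries, as given above, and their part in the result was not tested.

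Both calls were lost when any 1 of 4 libraries was left out. In these 4 fits 0.392% to 0.618% of all promoters were called higher and 0.176% to 0.249% lower, against 2.21% and 1.71% with all libraries. Without uninjured replicate 1, uninjured replicate 2, injured replicate 1 or injured replicate 2, the adjusted p of Tnfrsf1b was 0.0905, 0.0855, 0.101 and 0.110, and that of Tnfrsf1a 0.135, 0.0979, 0.118 and 0.124. With a window of 500 bp either side, both were lost as well (0.0878 and 0.104), where 2.33% of all promoters were higher and 1.16% lower. The directions held in each of these fits. Without shared barcodes the log2 changes were 1.08 and -0.58, and among barcodes with 20% in open tiles 1.11 and -0.57, all still called.

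The ratio of Tnfrsf1b to Tnfrsf1a cut sites within a library needs no scaling, and was chosen after the promoter values had been seen. It was 0.193, 0.254 and 0.337 in uninjured and 0.968, 0.960 and 0.519 in injured libraries. The mean went from 0.261 ± 0.072 to 0.816 ± 0.257 (SD, n = 3), 3.12 times as high, at an exact two-sided permutation p of 0.1, the smallest that 3 against 3 libraries allow. Within cluster 2, a cluster of cells found in every library and described further on, the ratio was 0.188, 0.5 and 0.211 in uninjured and 0.593, 0.598 and 0.332 in injured libraries. The groups overlapped there, with means 1.70 times apart (exact permutation p = 0.2). In the library sums of injured replicates 1 and 2 the TNFR2 gene was thus nearly as open at its start as the TNFR1 gene.

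The promoters of the feedback genes were open in all 6 libraries. Nfkbia had 42.0 ± 4.35 CPM before and 42.0 ± 2.99 after (SD, n = 3), with single libraries at 44.7, 44.4 and 37.0 against 42.5, 44.8 and 38.8. Its log2 change was 0.00 ± 0.09 (SE, adjusted p = 0.988). Its RefSeq promoter (chr12:55492648-55492897, minus strand) is printed because IkB-alpha is the textbook feedback target, and capitals mark its kB match, which begins 29 bases before the start.
Nfkbia promoter: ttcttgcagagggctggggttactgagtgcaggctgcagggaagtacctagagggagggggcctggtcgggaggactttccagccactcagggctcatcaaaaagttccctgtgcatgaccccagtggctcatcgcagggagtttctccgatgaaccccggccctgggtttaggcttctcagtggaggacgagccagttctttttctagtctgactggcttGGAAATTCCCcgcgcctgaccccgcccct

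Of 32851 RefSeq promoter entries of the same 250 bases, 7.25% held a kB match. Of the 10 entries found for members, which stand for 7 genes, 5 did: the Nfkbia entry, 1 of 2 for Tnfaip3 and all 3 for Nfkb2. These 3 promoters with kB matches were among those not called in the main fit.

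Tnfaip3 had 28.8, 31.1 and 25.7 before and 21.1, 25.4 and 23.2 after injury, a log2 change of -0.30 ± 0.10 (SE, adjusted p = 0.107). Nfkb1 had 24.0, 22.5 and 24.2 before and 20.99, 19.0 and 18.2 after (-0.28 ± 0.10, adjusted p = 0.115). Rela, the p65 subunit of the main dimer, had 33.7, 30.8 and 29.0 before and 25.6, 25.3 and 27.8 after (-0.24 ± 0.09, adjusted p = 0.126). In these 3 genes the injured libraries lay below the uninjured ones without overlap, yet none passed the adjusted threshold in the main fit. With a block for replicate number, Tnfaip3 alone of the 3 did (edgeR, adjusted p = 0.0403), where 5.94% of all promoters were lower. Groups without overlap were found at 5 members and at 27.3% of all tested promoters.

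Nfkb2 at 43.4 ± 4.56 and 42.0 ± 4.66, and Relb at 48.0 ± 1.47 and 45.7 ± 2.03 (SD, n = 3), the subunits of the slower non-canonical branch, overlapped between groups. So did Bcl3, the least open of the regulators, at 10.9 ± 1.28 and 9.24 ± 1.65, and Nfkbiz at 18.5 ± 4.08 and 19.2 ± 1.196. Nfkbiz has a second annotated start that was more open, at 56.0, 50.9 and 54.1 before and 46.3, 47.6 and 46.3 after injury (log2 change -0.23, adjusted p = 0.0773 among 23677 separate starts). The inner starts of Nfkb1, Tnfrsf1a, Bcl3 and Tnfaip3 were each less open than the outer one and none was called.

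**Figure D3:**
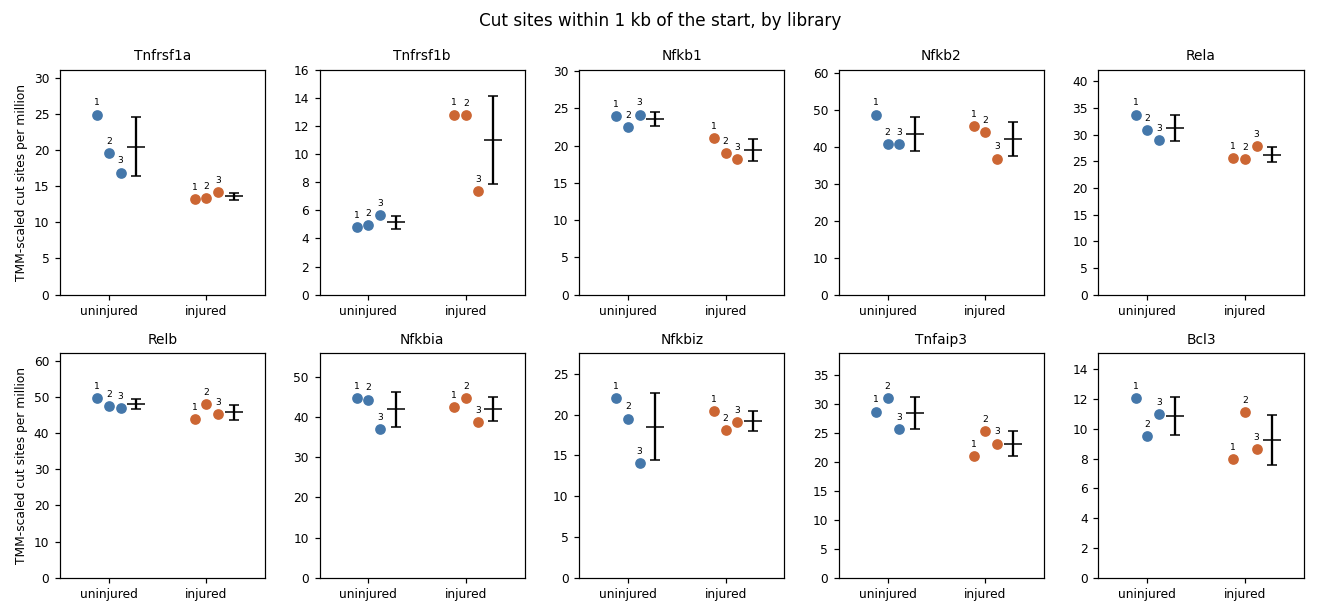
CPM, scaled, within 1 kb of the start of each of the 10 genes. Points are libraries numbered by replicate and bars show mean ± SD of 3 libraries. Tnfrsf1b goes up from 5.15 to 11.004 and Tnfrsf1a down from 20.5 to 13.6, while Nfkbia stays at 42.0.

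These directions depend on the scale. TMM factors from promoters place the median promoter at a log2 change of 0.00. With factors from 10 kb bins of the genome the median promoter was at -0.54, with 274 promoters higher and 9834 lower instead of 379 and 294. All members but Tnfrsf1b were then called lower, and Tnfrsf1b had a log2 change of 0.52 (adjusted p = 0.0652). With total cut sites alone the median was at -0.28 (417 promoters higher, 6600 lower), and 8 members were called lower. Relative to these medians, Tnfrsf1b stayed above and Tnfrsf1a below.

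A likeness in profile was sought for Tnfrsf1b, the member with the smallest promoter p. Over 6 libraries and 6363 promoters with at least 20 CPM, the most alike were Zwint (Pearson r = 0.995 of log2 values), Gas2l3 (0.995) and Hist1h1c (0.992). Zwint is a kinetochore gene, Gas2l3 acts in cytokinesis and Hist1h1c is a linker histone of a multigene family. Of these, Hist1h1c alone was called higher (log2 change 0.52, adjusted p = 0.0256). The order of 6 values is shared by many promoters, so this is a description only.

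In the wider pathway, 4 lists of 77 genes had 75 promoters tested, with 4 called higher and 4 lower (5.33% each way, against 2.21% and 1.71% of all promoters). Counts this small were not tested against those shares. Among TNF ligands and other receptors, 0 of 15 were called higher and 2 lower by edgeR, as by DESeq2, and 2 were higher at an unadjusted p under 0.05. Fas, the death receptor, went from 29.3 ± 1.69 to 19.5 ± 1.16 (SD, n = 3, log2 change -0.58, adjusted p = 0.00525). Ltbr, the lymphotoxin receptor, whose gene lies in the Tnfrsf1a locus, went from 24.3 ± 1.10 to 17.6 ± 0.74 (log2 change -0.46, adjusted p = 0.0183). The most open of the others, Tnfrsf12a (the TWEAK receptor, 25.4 ± 2.58 and 24.7 ± 2.37) and Tnfrsf21 (death receptor family, 19.8 ± 4.53 and 23.3 ± 2.59), were not called.

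Of 23 adaptors and kinases none was called by edgeR, with 1 higher and 4 lower at an unadjusted p under 0.05, and DESeq2 called 0 higher and 2 lower. Rnf31 (74.3 ± 6.36 and 61.1 ± 4.62, adjusted p = 0.071) and Sharpin (59.2 ± 7.10 and 53.0 ± 4.13, adjusted p = 0.344), both of the linear ubiquitin ligase, were the most open. Of 14 other brakes and Rel proteins tested, Rnf11, a partner of A20, was called higher, from 0.586 ± 0.478 to 3.10 ± 0.565 at a 5′-most start that was barely open. The open promoters of Rel (42.1 ± 3.55 and 38.4 ± 3.30) and of the deubiquitinase Cyld (53.6 ± 2.52 and 51.1 ± 1.24) were not called.

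Of 23 NF-kB target genes tested, 3 were called higher and 2 lower. Cxcl2, a neutrophil chemokine, rose from 3.83 ± 0.56 to 8.53 ± 1.99 (SD, n = 3, adjusted p = 0.0174). Ptgs2, which makes prostaglandins, rose from 5.88 ± 2.44 to 12.3 ± 2.14 (adjusted p = 0.0403), and Plau, the urokinase gene, from 9.02 ± 0.36 to 14.1 ± 2.80 (adjusted p = 0.0369). Irf1 fell from 36.8 ± 3.52 to 23.4 ± 1.41 (adjusted p = 0.00313) and the adhesion gene Icam1 from 42.4 ± 8.60 to 26.2 ± 3.17 (adjusted p = 0.0263). The most open targets, Gadd45b (48.4 ± 7.33 and 38.5 ± 2.11) and Bcl2l1 (41.0 ± 2.15 and 36.5 ± 0.94), were not called. Of the 8 called pathway genes, Fas and Irf1 were called in each of the 6 fits without 1 library. Without uninjured replicate 1, uninjured replicate 2 or injured replicate 2 no other was, and without injured replicate 1 only Icam1 was added. In these 4 fits 0.392% to 0.618% of all promoters were called higher and 0.176% to 0.249% lower. With factors from 10 kb bins the calls of all 3 rises were lost (adjusted p = 0.0614 for Cxcl2, 0.0539 for Ptgs2 and 0.725 for Plau), while Irf1 and Icam1 stayed called. On that scale 57.3% of all promoters were called lower and the median promoter was at -0.54. Which scale holds was not tested. Plau was also lost with total cut sites (0.0746), a 500 bp window (0.0509) and gene bodies (0.0521), and Ptgs2 in HBC-like cells (0.0553). Of the other called pathway genes, Rnf11 was lost with gene bodies (0.138). In cluster 2 of the clustered cells below, none of the 7 that could be tested was called by edgeR or had an unadjusted p under 0.05, Irf1 and Fas included, where 0.0363% of all promoters were called higher and 0.00725% lower.

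A library sums over its cells, so a shift in the mix of cells and a change within cells cannot be told apart in the values above. Barcodes were therefore clustered on tiles outside the 10 loci. Of 9 clusters, 1, 2, 8 and 9 were HBC-like by their marker list, although no HBC marker was among the 10 leading genes of any. Cluster 2 was led by Reg3g, Depp1, F2, Serpina3n, Prss30, Aspa, Adh7, Tff2, Cd36 and Serpina9, none of them on a marker list used here, and cluster 8 had the stress keratins Krt16 and Krt6a among its leading genes. The class thus pools clusters with different leading genes, and its name rests on the marker list alone. Whether cluster 2 holds the same kind of basal cell as clusters 1 and 8 was not tested. Fits within cluster 2 describe that cluster only. Cluster 1 held 1050 barcodes, mostly of uninjured libraries, and cluster 8 held 1380, of which 985, 245 and 146 came from injured replicates 1 to 3. Cluster 2 held 970, with 61 to 300 in each library, and cluster 9 held 182, of which 166 came from uninjured replicate 3. Since clusters were built from these cells, differences between clusters are given without a test, in CPM of the cluster. Injured and uninjured libraries were tested with edgeR within cluster 2 and within the HBC-like class.

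Tnfrsf1a promoters were at 28.05 ± 5.24 in cluster 1 (SD over 3 uninjured libraries) and at 12.2 ± 0.68 in cluster 8 (SD over 3 injured libraries). Tnfrsf1b promoters were at 4.67 ± 0.55 and 12.9 ± 2.13. Between the same clusters the sustentacular markers summed to 89.1 ± 17.1 and 35.0 ± 3.41 and the immune markers to 1.97 ± 1.35 and 5.87 ± 0.68, and their part in the result was not tested. In cluster 8 the Tnfrsf1b and Tnfrsf1a windows, of equal length, were thus at like levels. In cluster 2, Tnfrsf1a was at 25.9 ± 10.8 in uninjured and 19.7 ± 3.59 in injured libraries, and Tnfrsf1b at 6.76 ± 1.76 and 9.68 ± 1.76. In HBC-like cluster 9, given for uninjured replicate 3 alone, Tnfrsf1a was at 19.95 and Tnfrsf1b at 9.49. The level of Tnfrsf1b thus differed among HBC-like clusters of uninjured cells. Within cluster 2 no member was called by edgeR, with log2 changes of -0.10 ± 0.20 for Tnfrsf1a and 0.76 ± 0.32 for Tnfrsf1b (SE). At an unadjusted p under 0.05 there were 3 members in cluster 2, all higher: Tnfrsf1b, Nfkb2 and Nfkbiz. The share of all promoters at that threshold is not given, and nothing is read from this count.

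The 8 opened tiles were open in cluster 8 and nearly closed in clusters 1 and 2. They had been chosen for their rise in injured libraries, from which nearly all barcodes of cluster 8 came. The difference between clusters 8 and 1 thus follows largely from that choice. In cluster 8 the means of the tiles over 3 injured libraries ran from 2.81 (Tnfrsf1b -25.9 kb) to 8.98 (Bcl3 +20.5 kb). In cluster 1 no library exceeded 1.39, and in cluster 2 no library exceeded 1.73, injured libraries included. In cluster 9, given for uninjured replicate 3 alone, the tiles ran from 0 (Nfkb2 +47.9 kb) to 1.17 (Nfkbiz +61.1 kb). The Tnfaip3 site, for one, was at 0.55 ± 0.12 in cluster 1, at 1.04 ± 0.62 in injured cells of cluster 2 and at 5.67 ± 1.40 in cluster 8. Injured replicate 3, lowest at all 8 tiles in the library sums, had 20.3% of its clustered barcodes in cluster 8, against 74.6% and 60.6% in injured replicates 1 and 2. Of its clustered barcodes 64.3% were HBC-like, against 93.9% and 82.9% in those libraries. Within cluster 8, injured replicate 3 was the lowest of the 3 libraries at 5 of the 8 tiles. It was at 1.99 against 3.32 and 4.36 at the Nfkb1 site and at 4.64 against 7.27 and 6.46 at the Nfkb2 site. It was the highest at the other 3, with 9.82 against 8.11 and 9.01 at the Bcl3 site. The part of cell mix in the library sums was not tested.

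**Figure D4:**
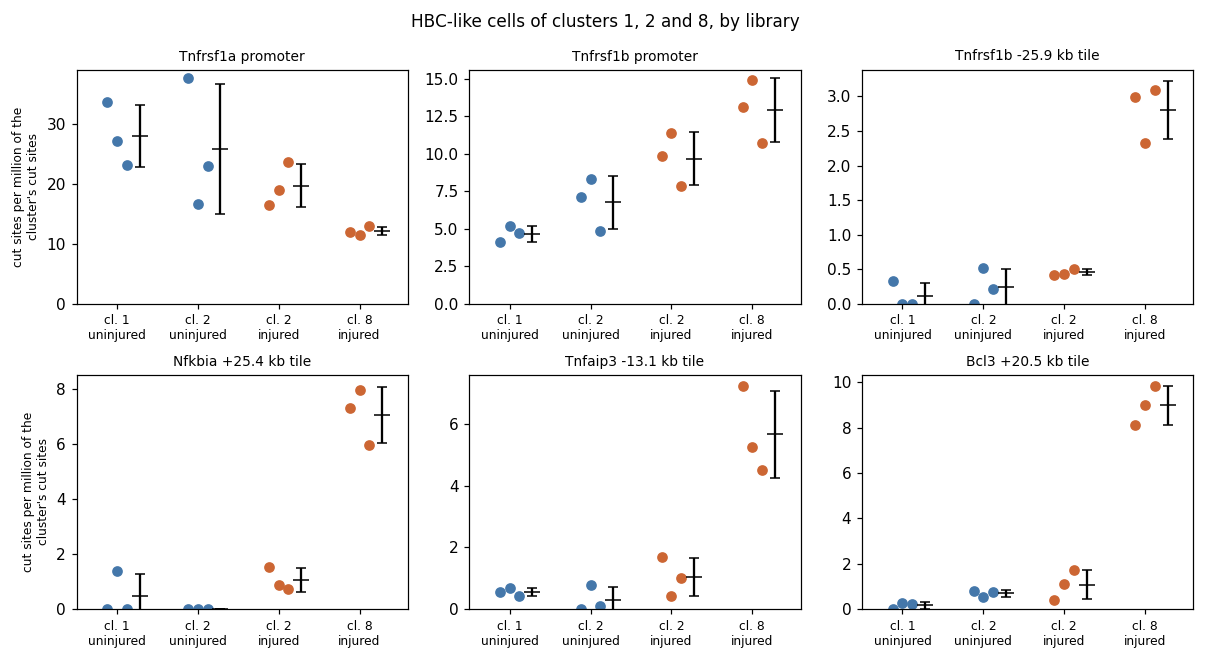
CPM of the cluster for both receptor promoters and 4 opened tiles, in HBC-like clusters 1 (uninjured), 2 (uninjured and injured) and 8 (injured). Points are libraries and bars the mean ± SD of 3. The tiles are open in cluster 8 and near the bottom axis in the other columns.

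Outside the HBC-like clusters, values are pooled over libraries, with exact 95% Poisson intervals that cover counting error only. Tnfrsf1a promoters were at 16.0 (13.3 to 19.1) in the sustentacular-like cluster 4 and at 4.51 (3.14 to 6.28) in the olfactory sensory neuron-like cluster 7. Tnfrsf1b promoters were at 2.77 (1.72 to 4.24) and 6.83 (5.12 to 8.94). Nfkbia was open in both, at 61.0 (55.6 to 66.8) and 40.5 (36.1 to 45.2). The 2 clusters also differ in their libraries. Of 224 barcodes of cluster 4, 116 came from uninjured replicate 2, and of 189 of cluster 7, 98 from injured replicate 3. The immune markers summed to 2.38 in cluster 4 and 14.3 in cluster 7. The part of library and of immune signal in these values was not tested.

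Restricted to all HBC-like barcodes, 62 member tiles were called higher and 25 lower, where 9.39% and 3.37% of all 302794 tested tiles were. In cluster 2 alone 0 of 308 tested tiles were called (edgeR), with 23 higher and 6 lower at an unadjusted p under 0.05. Of all 105972 tiles tested in that cluster, 0.595% were called higher and 0.0849% lower at the adjusted threshold. For the unadjusted threshold no share of all tiles is given, and nothing is read from 23 and 6. In that cluster the 8 opened tiles were too sparse to be tested.

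**Figure D5:**
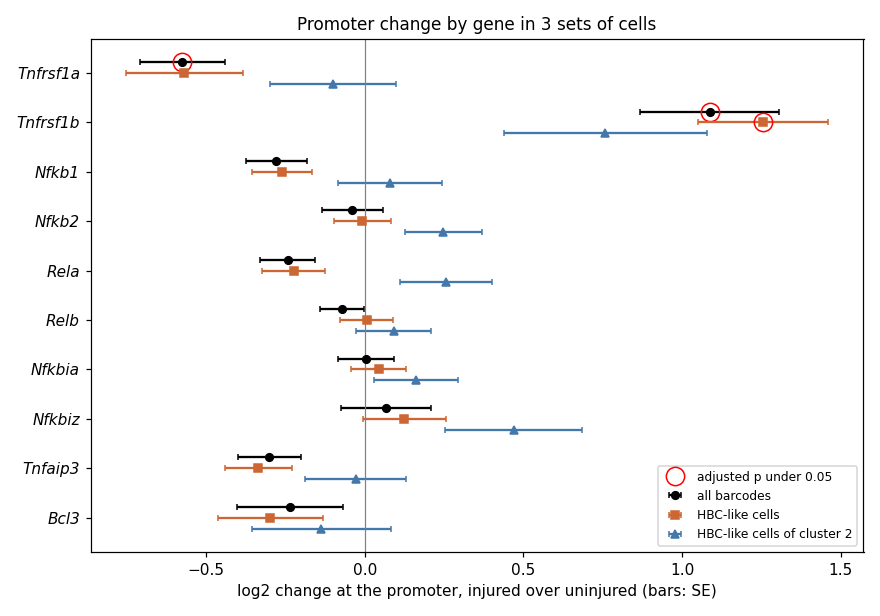
Log2 change at the promoter of each gene (bars are SE), injured over uninjured, for all barcodes, HBC-like cells and HBC-like cells of cluster 2. Red circles mark an adjusted p under 0.05, held by Tnfrsf1a and Tnfrsf1b for all barcodes and by Tnfrsf1b for HBC-like cells.

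Summed over the 10 loci, cut sites made up 2196 ± 118 unscaled CPM of an uninjured and 1953 ± 53.4 of an injured library (SD, n = 3, exact permutation p = 0.1, the smallest possible). The groups did not overlap. The share of all cut sites in open tiles, over the whole genome, moved with this sum, at 77.7%, 73.9% and 76.1% in uninjured and 70.7%, 65.1% and 72.7% in injured libraries, and its part in the difference was not tested. Among barcodes with at least 20% of cut sites in open tiles, which leaves out the very deep barcode of injured replicate 2, the values were 2216 ± 105 and 2094 ± 128 and overlapped (exact permutation p = 0.4).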

How the data were processed

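Single-cell ATAC-seq fragments were used, made by the submitters with Cell Ranger 2.0.0 on mm10, per the submitters' processing notes. The authors deposited, for each fragment, a barcode, both ends and a count of read pairs. Duplicates count once here. Each fragment end was 1 cut site, summed per library over barcodes with at least 2000 fragments, without calling doublets. Replicates are biological, per the labels.

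Promoters (1 kb either side of the 5′-most start, GENCODE M21) and 500 bp tiles were tested genome-wide with edgeR 4.0.16 (R 4.3.3, TMM, filterByExpr, quasi-likelihood, robust), with Benjamini-Hochberg adjustment and a threshold of 0.05. Tiles also needed at least 5 times the median tile's mean. Values are CPM (cut sites per 1000000) with TMM factors of promoters or of tiles, and plain CPM in clusters. An SE is the log2 change over the square root of F. DESeq2 1.42.0 was an alternative. Barcodes were clustered with scanpy 1.11.5 (Leiden, resolution 0.5). The procedure was tested on simulated data.

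All members are named, with the tile of largest called change per direction and locus. Further named are the 3 promoters most like the member of smallest p, the called pathway genes and the 2 most open uncalled ones per list. The members and lists were chosen with earlier results of these data known. The libraries give no measure of RNA, and the deposited peak matrix was not used here.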

Additional observations from a re-analysis of the deposited data

How the results depend on the processing

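Of the 8 opened tiles, all kept their direction under every alternative that gave a value. They had been chosen as the largest called rises in these same libraries, so this is no independent support. For the 10 promoters, the counts called higher (1) and lower (1) became 0 and 9 with factors from 10 kb bins, 0 and 0 with a 500 bp window, and 0 and 0 in HBC-like cells of cluster 2. With total cut sites 8 were lower, with gene bodies 2 and in HBC-like cells 0, where 38.5%, 2.78% and 2.58% of all promoters were. Leaving out single libraries gave 0 to 1 in each direction, while 0.392% to 4.31% of all promoters were higher and 0.176% to 3.44% lower. Clusters and shared barcodes were alternatives chosen after seeing the data. The cause of these changes was not tested.

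Member tiles called higher (35) and lower (15) became 62 and 25 in HBC-like cells (9.39% and 3.37% of all tiles there) and 0 and 0 in cluster 2 (0.595% and 0.0849% of all). Those called lower were 56 with factors from 10 kb bins, 31 with total cut sites and 8 with filterByExpr alone. Leaving out single libraries gave 10 to 69 higher and 1 to 20 lower, while all tiles called higher ranged from 1.02% to 7.87%. All tiles called lower ranged from 0.115% to 2.53% in these fits. The share of cut sites in the loci differed by -243 CPM, and by -122 among barcodes with 20% in open tiles. The difference in the receptor ratio was 0.555, and 0.208 in cluster 2.

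Of the promoters, directions turned only among the 6 named next, none of them called with the promoter factors over all barcodes. Nfkb1 was at 0.12 with gene bodies and 0.079 in cluster 2. Nfkb2 was at 0.00051 with a 500 bp window, -0.098 to 0.054 without single libraries (0.04 without uninjured replicate 1) and 0.25 in cluster 2, and Rela at 0.26 in cluster 2. Relb was at 0.086 with a 500 bp window, 0.091 in cluster 2 and at 0.0058 in HBC-like cells. Nfkbia was at -0.55 with 10 kb bins and -0.28 with total cut sites, near the median promoter at -0.54 and -0.28. It was at -0.017 without a filter, -0.028 with every start, -0.20 with gene bodies, and -0.090 to 0.059 without single libraries (-0.0018 without injured replicate 1, -0.04 without injured replicate 2). Nfkbiz was at -0.48 (10 kb bins), -0.22 (total cut sites), likewise near those medians, -0.26 (gene bodies) and -0.11 to 0.19 without single libraries (-0.11 without uninjured replicate 3). The value of -0.23 with every start is that of its more open second start, while the 5′-most stayed at 0.036. In cluster 2 the tiles of 2 larger falls also turned, Nfkb1 at -7.2 kb from -1.09 to 0.76 and Relb at +48.7 kb from -1.11 to 0.073.

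With the replicate block, 2 promoters were lower, Tnfaip3 (-0.29, adjusted p = 0.0403) being the one added, and tiles called higher and lower were 41 and 31. Of all promoters 5.94% were lower there, and of all tiles 5.66% were higher and 2.75% lower. Same-numbered libraries share the mice's age. Their deviations correlated at 0.0419, 0.171 and 0.197, and those of differently numbered libraries at -0.221 to 0.0875. Every library but injured replicate 1 correlated best with its own number, a hint from the data and not the design. With 1 pair under 0.1, the numbers were not taken as pairs.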
